A study of Mus musculus with 19 samples.

Results

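The AP-1 transcription factor family was followed through sorted dorsal root ganglion (DRG) cells that expressed α9 integrin and kindlin-1 or GFP, with or without crush of the dorsal roots. The members are the 7 Fos and Jun genes, Fos, Fosb, Fosl1, Fosl2, Jun, Junb and Jund, found by symbol in the table of genes that accompanies the expression values. All 7 were among the 12629 genes that passed the low-count filter of the authors. The question put to them was how the members compare with each other in the 4 groups, and how the early-response members (Fos, Fosb, Jun and Junb) compare with the late Fosl members (Fosl1 and Fosl2).

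The 19 libraries are RNA-seq profiles of bulk sorted cells taken 8 weeks after surgery. The GFP-naive group (n = 5) received AAV5-fGFP alone, and the GFP-crush group (n = 4) received the same virus with crush of the dorsal roots at the same operation. The α9k1-naive group (n = 6) and the α9k1-crush group (n = 4) received AAV5-α9-V5 together with AAV5-kindlin1-GFP, without and with the crush. All animals thus had a ganglion injection and an AAV, and no group was left without virus. The sample labels name C57BL/6 mice, with the GFP groups as wild-type and the others as a9k1 overexpression, and a papain dissociation, whereas the methods of the study name adult male Lewis rats and collagenase with trypsin. Reads were aligned to the mouse genome in either case, and the values below are those of mouse gene models. The CMV and CAG promoters of the viruses are not specific to neurons, and the sort selected GFP or kindlin1-GFP, so a sorted cell of the α9k1 groups need not carry the α9 virus. Whether each library came from 1 animal or from a pool is not given in the sources used here, so p-values measure the spread between these libraries.

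Depth was 36.4 to 87.6 M read pairs a library and 47.5% to 54.1% of reads aligned. Library pairs within a group correlated at r = 0.948 to 0.976 across genes. Fermt1, which encodes kindlin-1, checked the labels: it lay at 0.62 ± 0.16 in GFP-naive, 5.58 ± 0.33 in α9k1-naive, 0.57 ± 0.12 in GFP-crush and 7.17 ± 0.66 in α9k1-crush (log2 value, mean ± SD). Itga9, the α9 integrin gene, lay at 2.11 ± 0.25, 3.87 ± 0.92, 1.51 ± 0.44 and 6.59 ± 0.82 in the same order, and its lowest α9k1-naive library (2.38) fell below the highest GFP-naive library (2.40). Both genes were called higher in α9k1-crush than in α9k1-naive (limma log2FC 1.67 and 3.51, adjusted p = 0.0591 and 0.0404). The labelled cell type is neuronal, and 12 of 12 neuronal markers were measured, Rbfox3 at a mean of 5.96 to 6.23 and Snap25 at 9.41 to 10.9 in the 4 groups. Glial markers were also at high levels: the summed level of 13 satellite glia and Schwann cell markers was 14.5 to 16.8 over all libraries and that of the neuronal markers 12.6 to 14.4. Most of the glial sum was Apoe, and without it the other 12 summed to 12.6 to 14.2. Of the macrophage markers, Lyz2 (group means of 5.97 to 7.77), Aif1 (5.73 to 7.21) and C1qa (4.99 to 7.18) stood above Csf1r (2.91 to 4.14) and Ptprc (2.36 to 3.07), where the median gene was at 4.37.

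AP-1 is a dimer of basic leucine zipper proteins. Fos proteins cannot pair with each other and need a Jun partner, whereas Jun proteins pair with Fos proteins, with each other and with members of the ATF and MAF families. Fos, Fosb, Jun and Junb are immediate early genes, switched on within minutes by growth factors, calcium, stress or tissue dissociation and switched off again soon after. Fosl1 (Fra-1) and Fosl2 (Fra-2) lack the strong activation domain of Fos, rise later and stay on longer, while Jund is present in most resting cells. In sensory neurons Jun, together with Atf3, is well known for its rise after injury of the peripheral axon branch, a response that injury of the central branch in the dorsal root evokes to a lesser extent.

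The early-response members are switched by short elements close to their starts, and the upstream sequences are shown for the 4 of them because these genes moved together below. The sequences are the last 200 bases before the RefSeq start of each gene in GRCm38.p6, written 5′ to 3′ in the direction of transcription. The capitals mark the searched motifs that were found. Fos lies at chr12:85473890-85477273 on the plus strand, Fosb at chr7:19302696-19310051 on the minus strand, Jun at chr4:95049034-95052222 on the minus strand and Junb at chr8:84974484-84978718 on the minus strand. The stretches shown are chr12:85473690-85473889 on the plus strand, chr7:19310046-19310245 on the minus strand, chr4:95052223-95052422 on the minus strand and chr8:84978749-84978948 on the minus strand.
Fos: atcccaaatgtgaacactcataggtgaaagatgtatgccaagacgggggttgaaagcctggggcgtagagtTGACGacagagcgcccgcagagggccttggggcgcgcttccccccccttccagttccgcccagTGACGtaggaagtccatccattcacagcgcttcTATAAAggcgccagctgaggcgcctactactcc
Fosb: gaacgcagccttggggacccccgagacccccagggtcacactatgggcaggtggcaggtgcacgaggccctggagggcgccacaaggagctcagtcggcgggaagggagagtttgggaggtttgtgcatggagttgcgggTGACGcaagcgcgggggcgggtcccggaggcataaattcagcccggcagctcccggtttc
Jun: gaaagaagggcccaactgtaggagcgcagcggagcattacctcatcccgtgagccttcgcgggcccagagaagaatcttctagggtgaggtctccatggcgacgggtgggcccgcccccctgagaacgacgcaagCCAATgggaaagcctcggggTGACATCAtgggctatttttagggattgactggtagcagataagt
Junb: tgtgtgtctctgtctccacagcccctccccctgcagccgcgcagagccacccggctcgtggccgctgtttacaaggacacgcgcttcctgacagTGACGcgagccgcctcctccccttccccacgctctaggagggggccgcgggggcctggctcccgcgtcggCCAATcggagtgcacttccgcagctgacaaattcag

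TGACG, the core of the cAMP response element, was found at -129 to -125 and -66 to -62 in Fos, at -60 to -56 in Fosb and at -106 to -102 in Junb, counted back from the start. It was found in the 250 bases before the start of 17.8% of 32851 mouse promoters searched on both strands. Jun held no TGACG but TGACATCA at -45 to -38, the variant AP-1 site known from this promoter, which was found in 2.93% of promoters. TATAAA, searched on the transcribed direction only, stood at -33 to -28 in Fos (7.59% of promoters), and CCAAT at -65 to -61 in Jun and -36 to -32 in Junb (33.8% of promoters, both strands). The consensus AP-1 site TGACTCA (4.46% of promoters) and the full element TGACGTCA (1.55%), which contains TGACG, were found in none of the 6 members with an entry (all but Fosl1). The windows of Fosl2 and Jund held none of these motifs, and their RefSeq starts lie 671 and 1210 bases from the gene starts of the expression table, so those windows are not shown. Of the windows shown, the starts are the same for Fos and Jun and lie 6 bases apart for Fosb and 30 for Junb. A match is a description of letters and not a site in use.

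Of the other members, Fosl1 lies at chr19:5447703-5455945 on the plus strand, Fosl2 at chr5:32135801-32157842 on the plus strand and Jund at chr8:70698949-70700616 on the plus strand, in the same build. In the annotation, 4 of the 7 members overlap a gene on the opposite strand: Jun and the antisense RNA Junos, Jund and the antisense RNA Gm11175, Junb and Prdx2, and Fosl1 and Ccdc85b. Whether strand was used in counting is not given in the sources used here, so reads of these pairs may not have been separable. The values are per gene, so the full-length and shortened (ΔFosB) products of Fosb are summed.

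The order of the members was steady at the top and changed at the bottom. The deposited values are log2 values normalised for gene length, so levels were set side by side: across genes, the mean value hardly followed exon length (Spearman rho of -0.034, over 12610 genes, which are not independent replicates). Mismatches to the mouse genome made up 3.87% to 4.05% of aligned bases a library, and the sources name both mouse and rat. Whether reads were lost unequally between genes for this reason was not tested. In all 4 groups Fos was the most abundant member, followed by Junb, Jun and Fosb, and from Fos to Fosb no 2 neighbours overlapped in any group. In GFP-naive the order went on with Jund, Fosl2 and Fosl1, without overlap. In α9k1-naive Fosl1 (6.11) and Fosl2 (6.10) both stood above Jund (4.77) and overlapped each other. In GFP-crush Fosb and Jund overlapped, and Fosl2 and Fosl1 were again last. In α9k1-crush Fosl2 overlapped Fosb, and Fosl1 overlapped Jund, which was the lowest member.

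Fos ranked above 99.7% of all genes in GFP-naive and above 98.6% in GFP-crush, its lowest group. Fosl1 ranked above 1.32% of genes in GFP-naive, 0.372% in GFP-crush, 37.8% in α9k1-crush and 80.1% in α9k1-naive. Fosl2 ranked above 14.8% in GFP-naive, 2.92% in GFP-crush, 62.6% in α9k1-crush and 79.9% in α9k1-naive. Fosl1, and possibly Fosl2, may therefore have entered the table through the α9k1 groups alone. Their low values carry a counting error that normalised values do not give. The pooled SD within groups was 0.18 to 0.28 for the 7 members, and its median over all genes was 0.24.

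**Figure D1:**
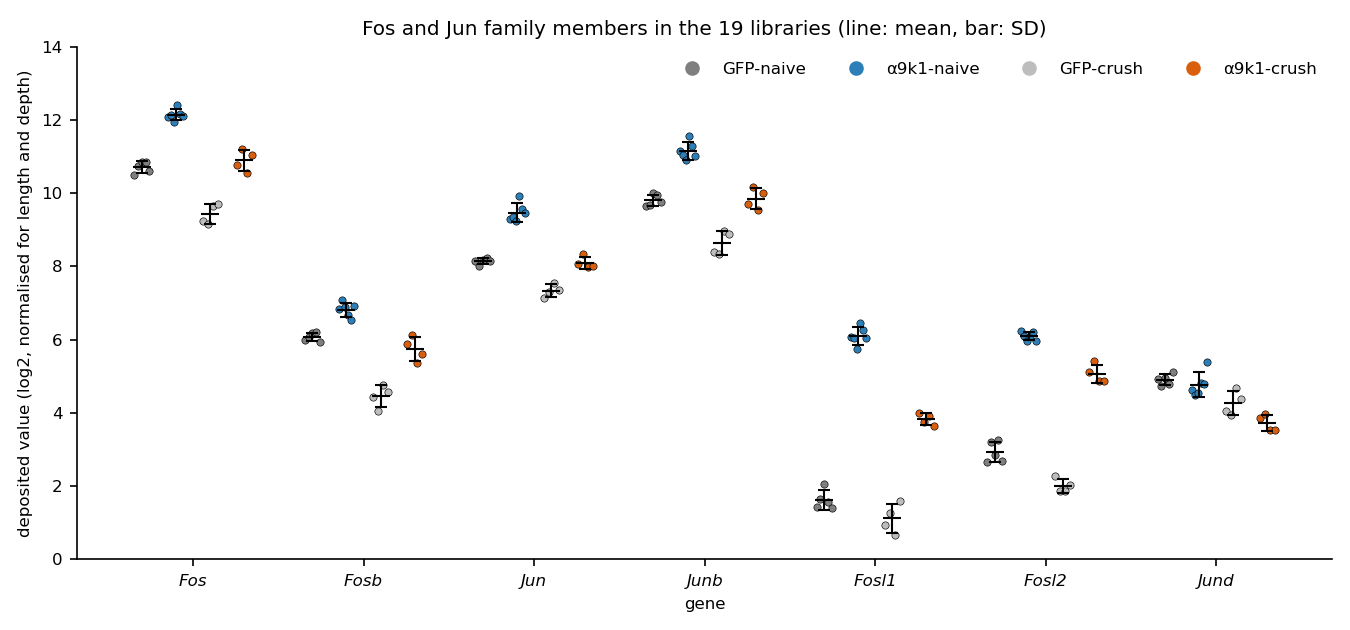
Deposited log2 values of the 7 members in each library (points), with the group mean (line) and SD (bar), for GFP-naive (n = 5), α9k1-naive (n = 6), GFP-crush (n = 4) and α9k1-crush (n = 4). Fosl1 and Fosl2 sit at 0.66 to 3.24 in every GFP library and at 3.62 to 6.45 in every α9k1 library, whereas the Jund groups lie within 3.54 to 5.39.

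α9 integrin and kindlin-1 without injury were compared first (α9k1-naive versus GFP-naive), and 6 of the 7 members were higher by every count. Fosl1 rose most, about 22.5-fold on the deposited values, then Fosl2 (8.998-fold), Fos (2.70-fold), Junb (2.55-fold), Jun (2.52-fold) and Fosb (1.67-fold). Folds are taken from the difference of the group means of the log2 values, which hold a small pseudocount. Those of low genes such as Fosl1 and Fosl2 are therefore understated. Limma called 7 of 7 members higher at an adjusted p under 0.1 with 3 technical covariates (principal components of sequencing metrics of the libraries), against 11.4% of all genes called higher, and 6 of 7 without covariates, against 16.5%. The 2 groups did not overlap for 6 of 7 members, all higher in α9k1-naive, against 8.43% of all genes. Jund was the exception in the last 2 counts.

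Fosl1, the late Fos-related gene also called Fra-1, had values of 1.43, 1.63, 2.06, 1.55 and 1.40 in the 5 GFP-naive libraries. The 6 α9k1-naive libraries ran from 5.74 over a median of 6.07 to 6.45. Each α9k1-naive library was above each GFP-naive library, with a log2FC of 4.41 (SE 0.20, adjusted p = 1.87e-09). Leaving out any 1 of the 19 libraries kept it between 4.26 and 4.52. Since Fosl1 may have passed the low-count filter through the α9k1 groups alone, a difference from the GFP groups was then bound to appear, and its p and its place in the counts, here and after crush, are a description only. Without it 6 of 6 members were called higher with covariates.

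Fosl2, the other late member (Fra-2), had values of 2.65, 3.21, 2.86, 3.24 and 2.68 in the 5 GFP-naive libraries. The 6 α9k1-naive libraries ran from 5.97 over a median of 6.10 to 6.23. Each α9k1-naive library was above each GFP-naive library, with a log2FC of 3.08 (SE 0.16, adjusted p = 8.53e-09). Leaving out any 1 of the 19 libraries kept it between 3.02 and 3.16. Fosl2 was also low in the GFP groups and may have passed the low-count filter through the α9k1 groups. Its p-values against the GFP groups, here and below, and its place in those counts are therefore a description.

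Fos, the founding immediate early member, was at 10.49, 10.74, 10.85, 10.87 and 10.60 in GFP-naive and at 11.95 to 12.40 (median 12.12) in α9k1-naive. The groups were separated by a gap of 1.08 and gave a log2FC of 1.59 (SE 0.15, adjusted p = 3.01e-06). Junb, a Jun protein that activates weakly and can restrain Jun, was at 9.67, 9.67, 9.997, 9.94 and 9.77 against 10.90 to 11.57 (median 11.09), with a log2FC of 1.53 (SE 0.17, adjusted p = 1.51e-05). Both genes had their highest values in the same library, α9k1-naive replicate 4.

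Jun, the main target of the JNK kinases and the member most tied to axon injury, was at 8.14, 8.02, 8.19, 8.23 and 8.14 in GFP-naive and at 9.24 to 9.92 (median 9.41) in α9k1-naive, again highest in replicate 4. Its log2FC of 1.44 (SE 0.12, adjusted p = 1.08e-06) was close to those of Fos and Junb. Fosb, whose stable splice product builds up with repeated stimulation, was at 6.001, 6.06, 6.17, 6.22 and 5.94 against 6.55 to 7.07 (median 6.86). It moved least of the early-response members, with a log2FC of 0.95 (SE 0.19, adjusted p = 0.00212), and the groups still did not overlap.

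Jund, the member most cells hold at rest, was at 4.91, 4.72, 4.95, 4.80 and 5.11 in GFP-naive and at 4.48 to 5.39 (median 4.70) in α9k1-naive, and these groups overlapped. The fit with covariates gave a log2FC of 0.37 (SE 0.10, adjusted p = 0.0217), whereas that without gave -0.13 (SE 0.16, adjusted p = 0.559), so its direction depended on the covariates. The call with covariates was lost without α9k1-naive replicate 6, the highest of the group (log2FC 0.29, adjusted p = 0.197, with values of 0.29 to 0.45 over all fits that left out 1 library).

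**Figure D2:**
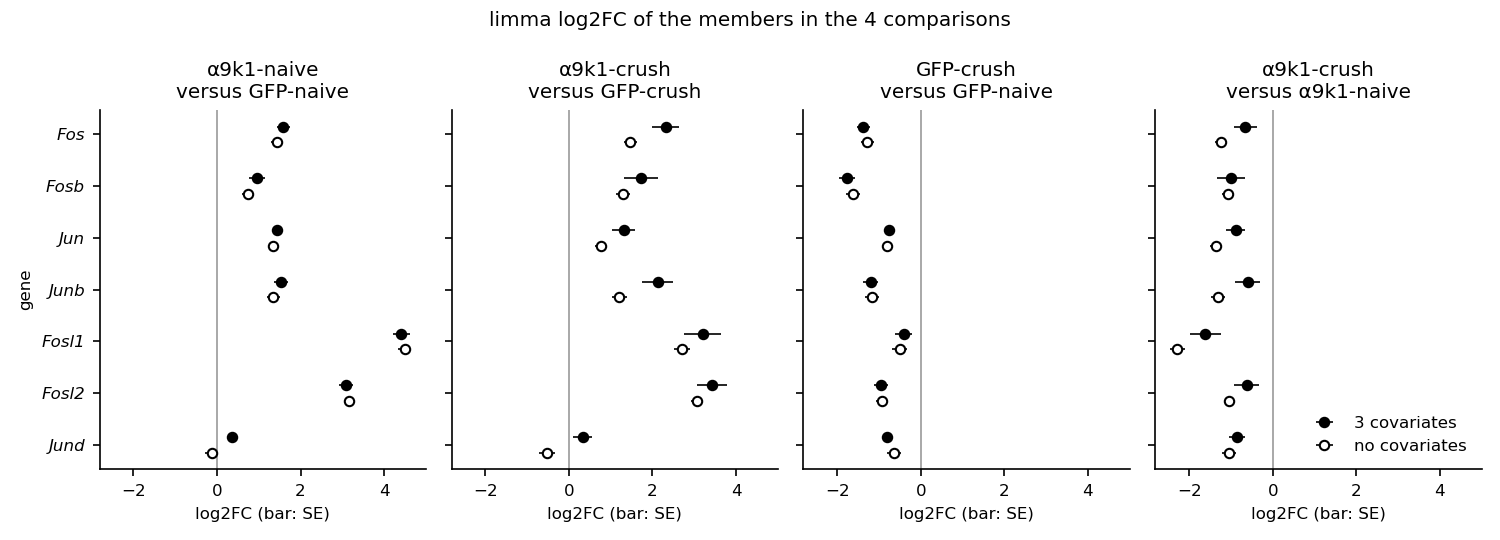
log2FC of the 7 members (points) with the SE (bars) from limma over 19 libraries, with 3 covariates (filled) and without (open), in the 4 comparisons. Fosl1 and Fosl2 have the largest values in both α9k1 comparisons (4.41 and 3.08 without injury, 3.20 and 3.42 after crush, with covariates), and no member lies above 0 in either crush comparison.

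After dorsal root crush, the α9k1-crush group was set against the GFP-crush group. The same 6 members were higher, Fosl2 (8.38-fold on the deposited values) and Fosl1 (6.55-fold), followed by Fos (2.77-fold), Fosb (2.46-fold), Junb (2.30-fold) and Jun (1.69-fold). The folds of Fosl1 and Fosl2 are understated, as both were low in GFP-crush. Fosl1 minus Fosl2 overlapped between these groups, so the order of these 2 genes was not resolved. Limma called 6 of 7 members higher with covariates, while 0.728% of all genes were called higher. Without covariates it called 6 higher and Jund lower, against 29.6% of all genes higher and 28.3% lower. For 6 members the groups did not overlap, all higher in α9k1-crush, against 20% of all genes. The covariates raised the factor by which the residual variance is multiplied in this contrast from 0.500 to 3.11.

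Fosl2 was at 2.27, 1.85, 1.85 and 2.01 in the 4 GFP-crush libraries and at 5.11, 5.40, 4.88 and 4.86 in the 4 α9k1-crush libraries. Fosl1 was at 0.94, 1.25, 0.66 and 1.59 against 3.99, 3.75, 3.92 and 3.62. For neither gene did the groups overlap, with a log2FC of 3.42 (SE 0.36, adjusted p = 0.000274) and a log2FC of 3.20 (SE 0.44, adjusted p = 0.00247). The gap between the lowest α9k1-naive and the highest α9k1-crush library of Fosl1 was 1.75.

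Fos was at 9.23, 9.15, 9.65 and 9.70 in GFP-crush and at 10.78, 11.21, 10.57 and 11.04 in α9k1-crush, and Junb at 8.40, 8.34, 8.98 and 8.88 against 9.70, 10.18, 9.53 and 9.998. For both genes α9k1-crush replicate 3 was the lowest and replicate 2 the highest of its group, and all 4 libraries stood above GFP-crush. The fits gave a log2FC of 2.32 (SE 0.33, adjusted p = 0.00287) for Fos and of 2.13 (SE 0.37, adjusted p = 0.0118) for Junb. Without covariates these were 1.47 and 1.20, both called.

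Jun was at 7.15, 7.31, 7.56 and 7.35 against 8.06, 8.34, 7.99 and 8.02, and Fosb at 4.44, 4.04, 4.77 and 4.58 against 5.88, 6.14, 5.37 and 5.62. The libraries again separated, by 0.43 for Jun and by 0.61 for Fosb. Their calls with covariates were closer to the threshold: Jun had a log2FC of 1.31 (SE 0.27, adjusted p = 0.0393) and Fosb one of 1.72 (SE 0.41, adjusted p = 0.0905). The Fosb call was kept in 7 of 19 fits that left out 1 library (1.23 to 1.91) and was lost without any of the 5 GFP-naive libraries, α9k1-naive 1, 3 or 4, GFP-crush 1, 2 or 4, or α9k1-crush 1. The Jun call was lost without GFP-naive 1 or α9k1-naive 4 (1.11 to 1.58 over the 19 fits).

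Jund was at 4.05, 3.94, 4.66 and 4.37 in GFP-crush and at 3.87, 3.97, 3.54 and 3.54 in α9k1-crush, and GFP-crush replicate 2 fell within the α9k1-crush range. It was not called with covariates (log2FC of 0.33 (SE 0.23, adjusted p = 0.715)) and was called lower without them (-0.53, SE 0.19, adjusted p = 0.0245). With only the libraries of these 2 groups in the limma fit, 0 of 12629 genes passed, and 4 of 7 members had an unadjusted p under 0.05.

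Crush alone was read from GFP-crush versus GFP-naive, and the family moved down. Fosb fell most (3.08-fold lower on the deposited values), then Fos (2.42-fold), Junb (2.24-fold), Fosl2 (1.91-fold), Jun (1.74-fold) and Jund (1.56-fold). With covariates 6 of 7 members were called lower, against 15.7% of all genes, and without covariates 7 of 7, against 20.1%. The groups did not overlap for 6 members, all lower in GFP-crush, against 12.2% of all genes. The direction over all genes depended on the scaling of libraries, with 933 genes higher and 1984 lower on the deposited values and 1826 higher and 1180 lower once libraries were centred on their medians, which moved the median of all genes by 0.14. The same count of members, 6, was called lower under both. This comparison and that of α9k1-naive share the GFP-naive libraries.

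The values of both groups are given above, and the highest GFP-crush library of Fosb (4.77) stood 1.17 below the lowest GFP-naive library. Fosb had a log2FC of -1.77 (SE 0.19, adjusted p = 5.12e-05) and Fos one of -1.38 (SE 0.15, adjusted p = 8.36e-05). Junb followed with -1.20 (SE 0.17, adjusted p = 0.000531) and Fosl2 with -0.96 (SE 0.17, adjusted p = 0.00225). Jund, with -0.82 (SE 0.11, adjusted p = 0.000269), was here called in the same direction as Jun (-0.76, SE 0.12, adjusted p = 0.00158). Fosl1, already among the lowest genes of the table, overlapped between the groups and was not called (log2FC of -0.41 (SE 0.21, adjusted p = 0.19)). It was called without covariates (-0.50, adjusted p = 0.0508) and when GFP-crush replicate 4 was left out (-0.58, adjusted p = 0.0826).

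In the α9k1 animals, α9k1-crush was lower than α9k1-naive for every member on the deposited values, from 4.87-fold for Fosl1 to 2.05-fold for Fosl2. The 2 groups did not overlap for 7 of 7 members, all lower after crush, against 16.1% of all genes. Limma called 4 members lower with covariates (Fosl1, Fosb, Jun and Jund), against 5.27% of all genes, and 7 without, against 27.1%. The covariates raised the variance factor of this contrast from 0.417 to 2.12.

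Fosl1 had a log2FC of -1.62 (SE 0.37, adjusted p = 0.0196) with covariates and one of -2.28 (SE 0.17) without. Jun (-0.89, SE 0.22, adjusted p = 0.0315) and Jund (-0.85, SE 0.19, adjusted p = 0.0176) were called in all 19 fits that left out 1 library. The Fosb call (-1.01, SE 0.34, adjusted p = 0.0978) was kept in 7 of those fits (-1.26 to -0.84). It was lost without GFP-naive 1, 2 or 3, α9k1-naive 1, 2, 3 or 4, GFP-crush 1 or 3, or α9k1-crush 1, 3 or 4. Fos (-0.65, SE 0.27, adjusted p = 0.184), Fosl2 (-0.63, SE 0.30, adjusted p = 0.238) and Junb (-0.60, SE 0.31, adjusted p = 0.272) did not pass with covariates. Without α9k1-crush replicate 2, the highest library of both genes in its group, Fos (-0.74, adjusted p = 0.0773) and Fosl2 (-0.76, adjusted p = 0.0467) passed. With only these 2 groups in the fit, or with a block for replicate number, 0 members were called (202 and 331 of 12629 genes).

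The interaction, which takes the log2FC of α9k1 without injury from that after crush, passed for 0 of 7 members with covariates in limma, where 2.2% of all genes were called. At an unadjusted p under 0.05 there were 2, Fosl1 (-1.21, SE 0.42, adjusted p = 0.198) and Fos (0.72, SE 0.31, adjusted p = 0.312). Without covariates 3 members passed, where 39.4% of all genes did. These were Fosl1 (-1.78, SE 0.25, adjusted p = 8.62e-05), Jun (-0.57, SE 0.18, adjusted p = 0.0219) and Fosb (0.56, SE 0.22, adjusted p = 0.0618). For these 3 genes the call depended on the covariates. The other members passed in neither fit, which does not show that their response to α9k1 was equal in both injury states.

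As a last comparison, α9k1-crush was also set against GFP-naive, a comparison added after the values were seen. Fosl1 (4.63-fold) and Fosl2 (4.39-fold) stayed above GFP-naive in every α9k1-crush library, with a log2FC of 2.79 (SE 0.40, adjusted p = 0.00348) and a log2FC of 2.46 (SE 0.32, adjusted p = 0.00247). In a limma fit of these 2 groups only, where 0 genes passed, neither did (adjusted p = 0.632 and 0.737). With a block for replicate number Fosl1 did not pass (adjusted p = 0.133). Fos, Fosb, Jun and Junb overlapped GFP-naive, and their differences on the deposited values were 0.19, -0.32, -0.04 and 0.042 on the log2 scale. Jund was below GFP-naive in every α9k1-crush library (2.25-fold).

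Limma called 2 of 7 members higher with covariates, against 1.37% of all genes, and none lower. Without covariates it called the same 2 higher, against 27.2% of all genes, and Fosb and Jund lower, against 32.4%. Groups that did not overlap were found for these 2 members, against 18.7% of all genes, and for Jund in the lower direction, against 24.3%. With covariates the early members had larger values (0.94 for Fos and 0.93 for Junb, adjusted p = 0.148 and 0.205). Fos passed without α9k1-naive 6 (1.09) or GFP-crush 1 (1.05) and Junb without α9k1-naive 6 (1.15). Leaving out α9k1-naive 6 took the count from 2 to 4 members, where 388 of 12629 genes were called, 186 of them higher. Fos also passed when libraries were centred on their medians (0.99, adjusted p = 0.0962) or quantile normalised (1.22, adjusted p = 0.0730) and with array weights (0.94, adjusted p = 0.0398), so its place relative to GFP-naive depended on the setting. Junb passed with array weights as well (0.95, adjusted p = 0.0586). Of the values with covariates, only that of Fosb changed sign with the scaling of libraries, from -0.052 to 0.0041 when libraries were centred on their medians.

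The balance between late and early members was measured inside each library as the log2 value of Fosl1 or Fosl2 minus that of Fos, Fosb, Jun or Junb, which cancels the scaling of the library. The ratios of Fosl1 and of Fosl2 to the early members against the GFP groups are a description only, for the reason given with their values. Fosl1 minus Fos was -9.10 ± 0.20 in GFP-naive and -6.04 ± 0.11 in α9k1-naive (mean ± SD), a shift of 3.06. Fosl2 minus Fos went from -7.78 ± 0.20 to -6.05 ± 0.15, a shift of 1.74. The 4 ratios of Fosl2 were higher in α9k1-naive by 1.74 to 2.43, without overlap (exact permutation test, 2-sided, p = 0.00216, the smallest this design allows, adjusted p = 0.00866 over 32 tests).

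After crush the shifts were 1.24 for Fosl1 minus Fos and 1.60 for Fosl2 minus Fos, and the largest was 2.31 for Fosl2 minus Jun. Again the 4 ratios of Fosl2 were higher in α9k1-crush than in GFP-crush without overlap (exact permutation p = 0.0286, the smallest 4 against 4 libraries allow, adjusted p = 0.0398). With these designs each p is set by the absence of overlap alone, and the sizes carry the comparison.

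Within the α9k1 groups the ratios were also compared between crush and no crush. The 4 ratios of Fosl1 were lower in α9k1-crush than in α9k1-naive, with differences of -0.91 (against Jun) to -1.22 (against Fosb), without overlap (exact permutation p = 0.00476, adjusted p = 0.0127). Of the 4 ratios of Fosl2, that to Jun was higher by 0.33 with overlap (exact permutation, adjusted p = 0.0508), and the other three differed by 0.032 to 0.28 and did not pass. In the GFP groups 4 of 8 ratios were higher after crush, those of Fosl1 to Fos (0.78), Fosb (1.12) and Junb (0.66) and that of Fosl2 to Fosb (0.69). Of these only Fosl1 minus Fosb did not overlap. Fosl1 in the GFP groups, and Fosl2 in GFP-crush, are close to the lowest values of the table, where a log ratio is compressed by the pseudocount.

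The late members were then set against each other, a test added after the values were seen. Fosl1 minus Fosl2 was -1.31 ± 0.35 in GFP-naive, 0.0089 ± 0.21 in α9k1-naive, -0.88 ± 0.44 in GFP-crush and -1.24 ± 0.30 in α9k1-crush. Between the α9k1 groups, where Fosl1 was not at the low end, it was lower in α9k1-crush than in α9k1-naive (difference -1.25) without overlap (exact permutation p = 0.00476, the smallest this design allows, adjusted p = 0.00952 over 4 tests). This difference stayed between -1.34 and -1.11 when any 1 library of these groups was left out. Against the GFP groups, where Fosl1 was near the lowest values, the differences were 1.32 in α9k1-naive versus GFP-naive, without overlap, and -0.35 in α9k1-crush versus GFP-crush, with overlap, and they are a description only. Of the late pair, Fosl2 thus kept more of its α9k1-naive level after crush than Fosl1 did.

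**Figure D3:**
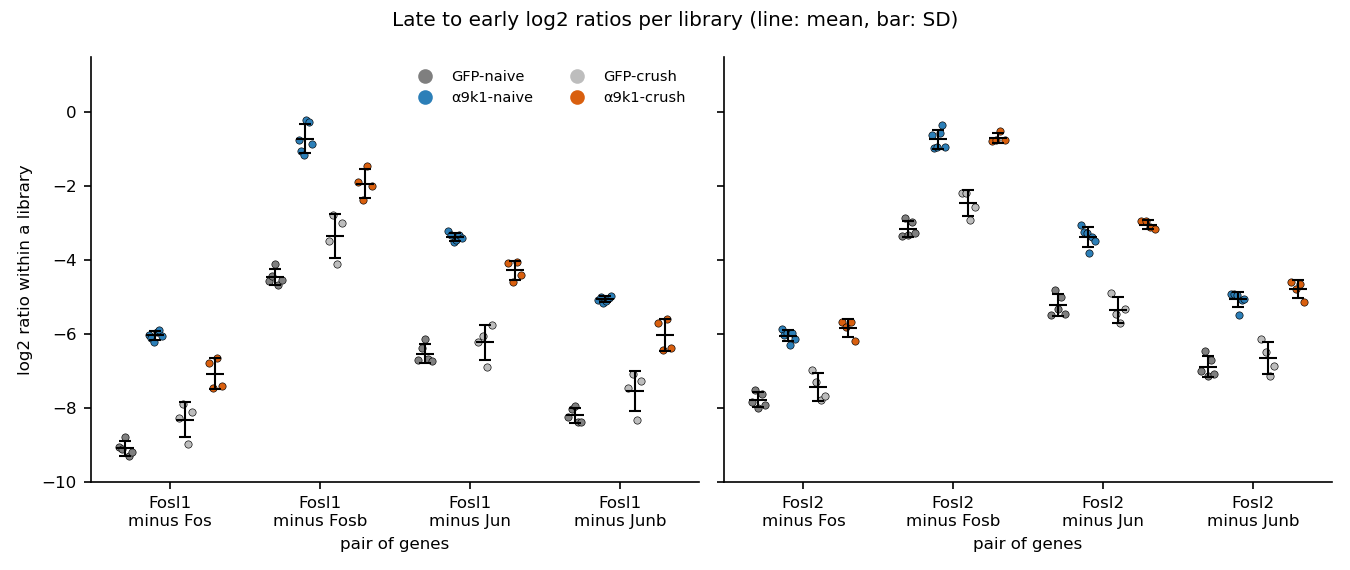
log2 ratio of Fosl1 (left) and Fosl2 (right) to each early-response member within each library (points), with the group mean (line) and SD (bar). All ratios are higher in the α9k1 groups than in the GFP groups of the same injury state, and those of Fosl1 are lower in α9k1-crush than in α9k1-naive (-7.08 ± 0.42 against -6.04 ± 0.11 for Fosl1 minus Fos).

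How closely the members varied together was described by Pearson r over the 19 libraries, which share the 4 group means and therefore correlate in part for that reason, and over deviations from the group means. Fos and Junb were the closest pair (r = 0.994, deviations 0.936), followed by Jun and Junb (0.981 and 0.803). Fosl1 and Fosl2 had r = 0.968 through the groups but 0.155 over deviations. Jund had r between -0.0063 (Fosl2) and 0.484 (Fosb), and over deviations 0.394 to 0.505 with the early-response members and -0.028 and -0.13 with Fosl1 and Fosl2. Within groups, then, libraries with more Fos also had more Junb, and less so more Jun (0.667) or Fosb (0.562).

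**Figure D4:**
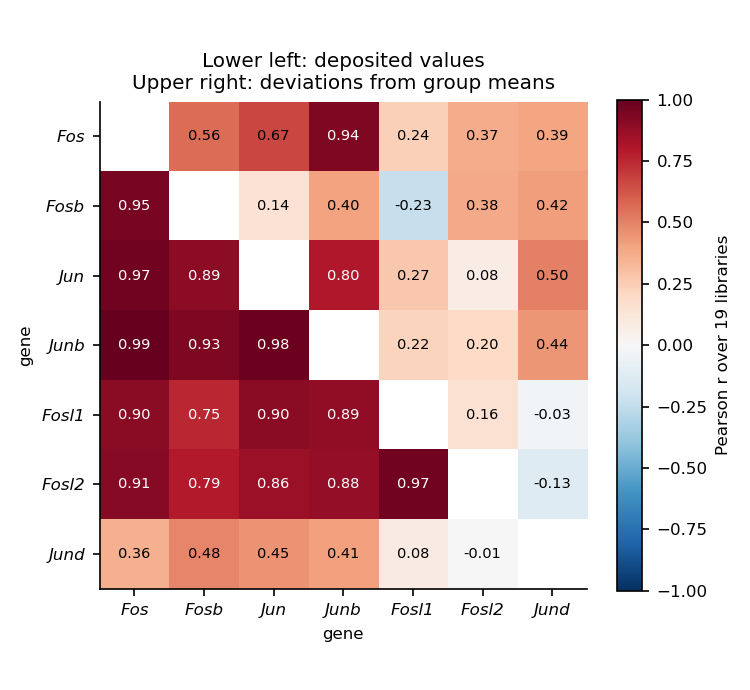
Pearson r between members over 19 libraries, for deposited values (lower left) and for deviations from the group means (upper right). Fos and Junb stay close in both (0.994 and 0.936), while Fosl1 and Fosl2 are close only in the deposited values (0.968 and 0.155).

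For each member the 3 genes outside the family with the highest r over the 19 libraries are named. Fos was most like Egr1 (r = 0.991, deviations 0.826), another immediate early factor, then Sat1 and Gadd45g (0.987 and 0.983). Junb was most like Sat1, Rnd3 and Gadd45g (0.983 to 0.985), and Jun most like Gadd45g, Ppp1r15a, a stress-induced phosphatase subunit, and Mt1, a metallothionein (0.984 to 0.986). Fosb was most like Btg2 (0.967), Hspa1b and Vegfa. Fosl1 was most like Fam110a, Mb21d1, which encodes the DNA sensor cGAS, and Ifrd1 (0.988 to 0.991, with 0.029 to 0.46 over deviations). Fosl2 was most like the cytokine Il6 (0.993, deviations 0.448), Nfkbia, the inhibitor of NF-κB, and Irf1. Jund was most like Foxd3 (0.938, deviations 0.769), a neural crest and glial factor, Pcdhga8, and Kcnj10 (0.927, deviations 0.779), the potassium channel of satellite glia.

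Other partners that can dimerise with Jun or Fos proteins were read from a list of 14 ATF, BATF, JDP and MAF genes, of which 10 were measured. In α9k1-naive versus GFP-naive 8 of 10 were called higher and 2 lower (median log2FC 1.36, against -0.08 over all genes), where 11.4% of all genes were called higher and 17.6% lower. Atf3, the injury-induced partner of Jun, had a log2FC of 2.99 (SE 0.17, adjusted p = 1.18e-08), and the small MAF genes Maff and Mafk had 2.62 and 2.15. After crush (α9k1-crush versus GFP-crush) Atf3 was called higher (2.16, SE 0.36, adjusted p = 0.00893), and the median of the list was 1.35 (0.012 over all genes). With crush alone 5 of 10 were called lower, against 15.7% of all genes, among them Maff at -1.25 (SE 0.23, adjusted p = 0.00364), and the median was -0.47. Maff (-2.001) and Atf3 (-1.42, both adjusted p = 0.0134) were also lower in α9k1-crush than in α9k1-naive.

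The calls among the kinases upstream of Jun and Fos depended on the covariates. Of 12 measured genes of the JNK pathway, 0 were called higher and 3 lower in α9k1-naive, where 17.6% of all genes were lower, the scaffold genes Mapk8ip1 (-0.48, SE 0.10, adjusted p = 0.00409) and Mapk8ip2 (-0.48) and the kinase gene Map3k11 (-0.43). In the other 3 comparisons limma with covariates called 0 of the 12 (0 to 3 had an unadjusted p under 0.05), while without covariates it called 7 higher and 1 lower in α9k1-crush versus GFP-crush (29.6% and 28.3% of all genes) and 6 higher in α9k1-crush versus α9k1-naive (28.5%). Of 14 measured ERK and SRF inputs 1 was called higher and 2 lower in α9k1-naive with covariates, near the 11.4% and 17.6% of all genes. In α9k1-crush versus GFP-crush 0 were called with covariates (1 had an unadjusted p under 0.05), and 6 higher and 1 lower without. With crush alone 1 was called lower with covariates (15.7% of all genes), and 1 higher and 4 lower without (11% and 20.1%). In α9k1-crush versus α9k1-naive 2 were called lower with covariates (5.27% of all genes), and 4 higher and 3 lower without, near the shares of all genes (28.5% and 27.1%). Srf, the serum response factor that drives Fos and Egr1, rose in α9k1-naive (1.78, SE 0.16, adjusted p = 1.94e-06) and was lower in α9k1-crush than in α9k1-naive (-1.98, SE 0.29, adjusted p = 0.00202). With covariates its interaction passed (-1.53, SE 0.34, adjusted p = 0.0425). Srf had a mean of 3.98 in α9k1-naive, but of 2.28 in GFP-naive, 1.89 in GFP-crush and 2.11 in α9k1-crush. It may thus have passed the low-count filter through α9k1-naive alone, and its values are a description.

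Of 8 measured genes for turnover of Jun and Fos proteins, 2 were called higher and 1 lower in α9k1-naive, where 11.4% and 17.6% of all genes were, with Trib1, a pseudokinase that brings targets to the ligase COP1, at 2.34 (SE 0.17, adjusted p = 1.39e-07). Trib1 was the 1 called in α9k1-crush versus GFP-crush as well (1.83, SE 0.37, adjusted p = 0.033), where 0.728% of all genes were called higher. Without covariates 5 were called higher and 1 lower there, against 29.6% and 28.3% of all genes. With crush alone 4 were lower, against 15.7% of all genes, among them Gsk3b and Ubr4.

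Textbook AP-1 targets were mostly higher with α9k1 in the absence of injury. Of 16 measured genes 12 were called higher and 1 lower in α9k1-naive (median log2FC 1.93), against 11.4% and 17.6% of all genes. Il6 had a log2FC of 5.83 (SE 0.20), the chemokine gene Ccl2 3.91 and the heme oxygenase gene Hmox1 3.34. In α9k1-crush versus GFP-crush 4 were called higher and none lower, where 0.728% and 0.182% of all genes were (9 higher and 2 lower without covariates), with Il6 at 5.71 (SE 0.43) and Ccl2 at 3.02. Il6 was at a mean of 1.79 in GFP-naive and 0.43 in GFP-crush, so that like Fosl1 it may have passed the low-count filter through the α9k1 groups alone, and its values are a description. With crush alone 1 was called higher, where 7.39% of all genes were, and 8 lower, where 15.7% were, among them the metallothionein genes Mt1 (-1.27) and Mt2 (-1.21). In α9k1-crush versus α9k1-naive 9 were called lower and 1 higher, where 5.27% and 4.47% of all genes were (14 lower and 1 higher without covariates). The fit with covariates was led by the neuropeptide gene Gal (-3.92) and Hmox1 (-2.52). On the deposited values Gal had means of 6.96 in GFP-naive, 8.78 in α9k1-naive, 7.33 in GFP-crush and 7.06 in α9k1-crush. Its drop between the α9k1 groups was smaller there than those of Mt1 (8.78 to 6.25) and Mt2 (7.16 to 4.63). The interaction passed for Gal (-3.88, adjusted p = 0.0379), Hmox1 (-2.57, adjusted p = 0.00184) and Timp1 (-1.22, adjusted p = 0.0537) among 4 genes called with covariates (2.2% of all genes), while 1 higher and 12 lower were called without (39.4%). Several of these genes are also expressed by glia and macrophages.

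Genes known to respond to tissue dissociation, which overlap the immediate early programme, moved with the early members. Of 26 measured genes of such a list without Fos or Jun genes, 21 were called higher and 2 lower in α9k1-naive (median log2FC 0.92), against 11.4% and 17.6% of all genes. In α9k1-crush versus GFP-crush 12 were called higher (1.73), against 0.728% of all genes, and none lower. In GFP-crush versus GFP-naive 21 were called lower (-0.94), against 15.7% of all genes, and none higher. In α9k1-crush versus α9k1-naive 1 was called higher and 8 lower with covariates (-0.60), against 4.47% and 5.27% of all genes, and 3 higher and 23 lower without. The heat shock genes Hspa1a and Hspa1b fell by 2.17 each after crush alone. The summed level of the list was 13.7 to 13.9 in GFP-naive, 15.1 to 15.6 in α9k1-naive, 13.5 to 13.7 in GFP-crush and 14.4 to 14.6 in α9k1-crush, in the order of the Fos means. The part of dissociation in the values of the early members was not tested.

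Markers of other cell types also differed between the groups. Neuronal markers summed to 13.3 to 13.6 in GFP-naive, 12.6 to 12.9 in α9k1-naive, 13.9 to 14.4 in GFP-crush and 13.9 to 14.4 in α9k1-crush. In α9k1-naive 1 of 12 neuronal markers was called higher and 4 lower, where 11.4% and 17.6% of all genes were. In GFP-naive the sum was led by Uchl1, Nefl and Nefm. In α9k1-naive Nefl went from a mean of 11.27 to 9.41, Nefm from 10.58 to 8.26 and Uchl1 from 11.73 to 11.23. Nefh, Snap25 (9.70 and 9.41), Tubb3, Rbfox3, Isl1 and Scn10a also had lower means there. Prph (9.90 and 10.11), Avil (8.33 and 8.44) and Scn9a (3.84 and 3.94) had higher means. Satellite glia and Schwann cell markers summed to 15.8 to 16.2, 16.3 to 16.8, 15.2 to 15.5 and 14.5 to 15.2 in the same order, led by Apoe. Without Apoe the other 12 summed to 13.57 to 13.88, 12.62 to 12.97, 13.63 to 14.17 and 12.83 to 13.66, with α9k1-naive below GFP-naive. In α9k1-naive 3 of 13 glial markers were called higher and 6 lower (11.4% and 17.6% of all genes). In GFP-crush versus GFP-naive 1 was called higher and 5 lower (7.39% and 15.7%). In α9k1-crush versus α9k1-naive 5 were called higher and 4 lower (4.47% and 5.27%). Macrophage markers summed to 7.64 to 8.14 in GFP-naive and to 8.99 to 10.04 in the other groups, with 7 of 10 called higher in α9k1-naive (11.4% of all genes) and 7 of 10 in GFP-crush (7.39%). Markers of endothelial cells and fibroblasts summed to 9.53 to 9.85 in GFP-naive 6.79 to 8.32 in α9k1-naive, 8.38 to 8.78 in GFP-crush and 7.95 to 8.44 in α9k1-crush, with 6 of 6 called lower in α9k1-naive (17.6% of all genes). In GFP-crush versus GFP-naive 4 of these 6 were called lower (15.7%), and 7 of 12 neuronal markers were called higher and 1 lower (7.39% and 15.7%). In α9k1-crush versus α9k1-naive 4 of the 6 and 4 of the 12 were called higher (4.47%). In α9k1-crush versus GFP-crush limma with covariates called 0 of the 12 neuronal, 13 glial, 10 macrophage and 6 endothelial and fibroblast markers (1, 2, 1 and 2 had an unadjusted p under 0.05), in the contrast whose variance factor the covariates raised to 3.11. Without covariates 6, 9, 3 and 2 of these markers were called, where 29.6% of all genes were called higher and 28.3% lower. In these bulk samples fewer cells of a type and less RNA per cell cannot be told apart, and the part of cell mixture in the AP-1 values was not tested.

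**Figure D5:**
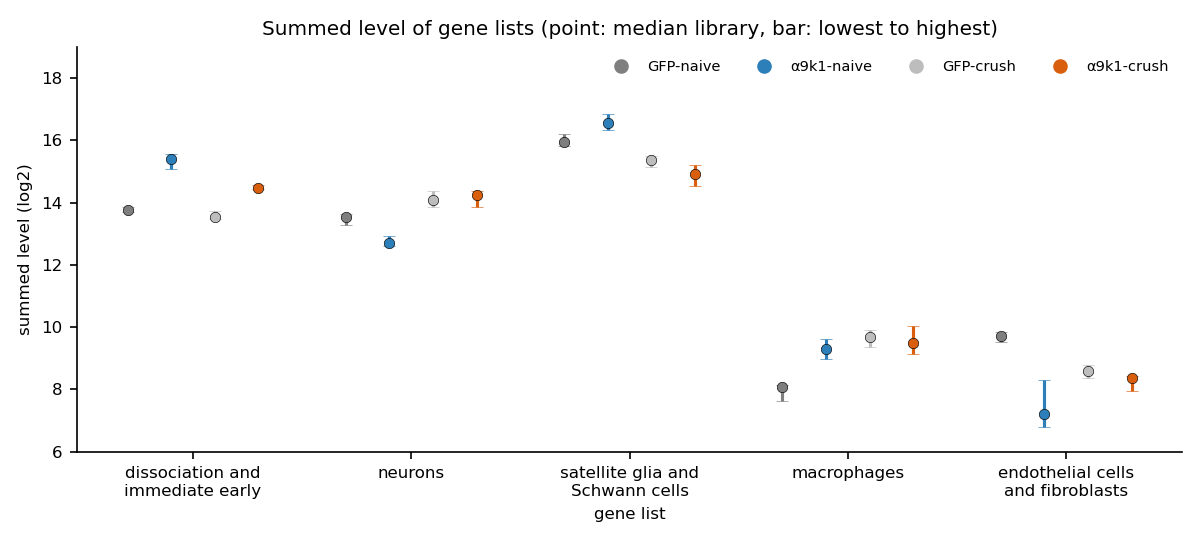
Summed level (log2 of the sum over genes of 2 to the power of the deposited value) of the dissociation and immediate early list without Fos and Jun genes and of 4 marker lists, as the median library (point) with the lowest and highest library (bar) of each group. The dissociation list is highest in α9k1-naive (15.1 to 15.6), where the neuronal list is lowest (12.6 to 12.9).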

How the data were processed

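RNA-seq libraries of cells sorted for GFP were read in 19 samples of 4 groups, and each library took its group from its label. According to the methods of the study, reads were aligned to mm10 with STAR, alignments to different chromosomes were removed with SAMtools, and Salmon gave counts per gene. The authors deposited log2 values after removing genes with few reads, adding a small pseudocount and normalising for gene length and depth with cqn. Metrics of each library were deposited by the authors as counts of reads and bases, as fractions, as percent values and as ratios, made with Picard. The expression table was joined to the authors' gene table by order, which was checked with the average expression given there (r = 0.959 across genes, 0.0899 when shifted by 1). The fold changes, p-values and adjusted p-values of the authors' own comparisons in that table were not used. The sample labels name mice, papain and the RNeasy Micro kit, and the methods name Lewis rats, trypsin with collagenase and the NucleoSpin RNA XS kit.

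One limma fit (limma 3.58.1, R 4.3.3) over all 12629 genes took the 4 group means and the first 3 principal components of 48 scaled metrics (45.9%, 24.1% and 11.5% of their variance). The batch term of the study is not in the labels and was left out. A gene was called at an adjusted p under 0.1, with the Benjamini-Hochberg adjustment made across the table. Exact permutation tests (2-sided) were used for log ratios between members (Python 3.11.15, scipy 1.17.1). Depth limits single values only through the spread between libraries, as normalised values give no counting error. The scripts were tested on simulated data. The alternatives were a fit without covariates or with the first only, a fit of 2 groups only, removal of the lowest 25% of genes by mean, median centring, quantile normalisation, array weights, a replicate block and leaving out each library. Named genes are the 7 members, the 2 transgenes, the 3 called genes with the largest change of each list and the 3 genes most like each member. Values of some genes of the lists are not reported here. Members and lists were chosen with earlier results of these data known. Promoters are those of RefSeq on GRCm38.p6, with 6 of 7 members matched by symbol.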

Additional observations from a re-analysis of the deposited data

How the results depend on the processing

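The values of the members were computed again under the alternatives, except that the interaction could not be fitted with 2 groups only and the gene lists were counted with and without covariates only. Of 333 values of single members and of Fosl1 minus Fosl2 under settings other than leaving out 1 library, 277 kept their direction and their side of the threshold, 22 lost a call, 22 gained one and 12 changed sign. Of 836 values that left out 1 library, 793 kept both, 27 lost a call, 6 gained one and 10 changed sign. Without covariates the count of members called was 7 in the crush comparison of α9k1 groups, 3 in the interaction and 4 in α9k1-crush versus GFP-naive, and with the first covariate only it was 7 and 3 in the first and second of these. Signs then turned for Jund in the α9k1 comparison without injury (-0.13 in both fits) and in the α9k1 comparison after crush (-0.53 and -0.69), for Junb in the interaction (-0.15 and -0.19), for Fosl2 in the interaction (-0.10 without covariates), and for Jun in α9k1-crush versus GFP-naive (-0.040 and -0.082). With only the 2 groups compared, limma called 0 members in the α9k1 comparison after crush, in the crush comparison of α9k1 groups and in α9k1-crush versus GFP-naive (4, 4 and 2 at an unadjusted p under 0.05, and 0, 202 and 0 of all 12629 genes called), where 3 covariates leave few degrees of freedom. In the interaction the calls over all genes were 171 higher and 107 lower on the deposited scale, 118 and 167 with median-centred libraries (a shift of the median by -0.13) and 128 and 134 with quantile normalization. Quantile normalization of the crush comparison of GFP groups gave 1206 higher and 1373 lower, again with 6 members lower. Array weights gave 4 members higher in α9k1-crush versus GFP-naive, where 1000 of 12629 genes were called, 340 of them higher. Fosb in that comparison turned to 0.62 with only the 2 groups, to 0.0041 with median-centred libraries and to 0.20 with the replicate block.

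Replicate numbers do not pair the libraries. Over 25 pairs with the same number the median correlation of deviations was 0.020 (-0.27 to 0.15), 4 pairs were over 0.1, and 3 libraries had their best match in another group under their own number. With the replicate block 6 members were called in the α9k1 comparison without injury, 3 in the α9k1 comparison after crush, 6 in the crush comparison of GFP groups, 0 in the crush comparison of α9k1 groups (6 at an unadjusted p under 0.05), 0 in the interaction (0 at an unadjusted p under 0.05, 2 without the block) and 1 in α9k1-crush versus GFP-naive. The shares of all genes called were 19.4%, 0.451%, 21.6%, 2.62%, 0.206% and 0.333% in the same order.

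Leaving out each library gave 6 to 7 members in the α9k1 comparison without injury, 4 to 6 in the α9k1 comparison after crush, 6 to 7 in the crush comparison of GFP groups, 3 to 6 in the crush comparison of α9k1 groups, 0 in the interaction and 2 to 4 in α9k1-crush versus GFP-naive. Signs turned for Jund (-0.20 to 0.092) and Jun (-0.29 to 0.099) in the interaction and for Fosb in α9k1-crush versus GFP-naive (-0.38 to 0.12). The ratios called stayed at 8 in both α9k1 comparisons, and were 3 to 6 in the crush comparison of GFP groups and 4 to 7 in the crush comparison of α9k1 groups. With the covariates regressed out they were 8, 8, 5 and 6. The cause of these changes was not tested.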
